A study of Homo sapiens with 2 samples.

Results

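Chemokine genes and the adhesion gene ICAM1 were compared in SAS cells that did or did not carry added ASC. SAS is an established line from a human oral cancer. The 9 genes were chosen by name: CXCL1, CXCL2, CXCL3, CXCL8, CXCL16, CX3CL1, CCL2, CCL20 and ICAM1. All 9 have rows in the deposited transcript table, with 33 transcripts of 134092 and 9 genes of 24124. One library came from SAS cells stably carrying the lentiviral plasmid pLKO.AS2 with ASC (ASC library), and the other from SAS cells with the plasmid alone (control library). Both lines were kept in DMEM with serum, G418 and puromycin. ASC is the inflammasome adaptor encoded by PYCARD. The labels do not say whether each line is 1 clone or a pool of cells. Each group has 1 library, so nothing below was checked in a replicate, no test between conditions was made, and every interval covers counting error only.

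Chemokines are small secreted or membrane-bound proteins that draw leukocytes along a gradient by acting on G protein-coupled receptors. CXCL1, CXCL2, CXCL3 and CXCL8 carry the ELR amino acids ahead of their paired cysteines, act on CXCR2 and attract neutrophils. ICAM1 is the cell surface ligand of the leukocyte integrins LFA-1 and Mac-1, which lets leukocytes bind and cross an epithelium or endothelium. In epithelial cells these genes are textbook targets of NF-kB, a transcription factor that binds short sites of the kappaB type near their start.

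The sequences before the genes' start sites are shown because the best known shared feature of this group is such a site. RefSeq promoter windows (GRCh38.p14, 250 bases before to 50 after the start) matched 6 of the 9 genes by symbol, the other 3 being CXCL16, CX3CL1 and CCL2. Each line gives 30 bases on the gene's own strand, with capitals for the match to GGAANTTCC, or for CCL20 to a longer pattern (GGG, 2 bases of any kind, then TTTCC) read on the opposite strand.
CXCL1, chr4:73869304-73869333, plus strand: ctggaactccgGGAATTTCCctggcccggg
CXCL2, chr4:74099254-74099283, minus strand: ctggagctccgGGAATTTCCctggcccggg
CXCL3, chr4:74038749-74038778, minus strand: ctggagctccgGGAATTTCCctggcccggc
CXCL8, chr4:73740467-73740496, plus strand: ttgcaaatcgtGGAATTTCCtctgacataa
ICAM1, chr19:10270923-10270952, plus strand: tgctttagcttGGAAATTCCggagctgaag
CCL20, chr2:227813753-227813782, plus strand: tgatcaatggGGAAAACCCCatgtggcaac

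The letters GGAANTTCC, searched on both strands, were found in 5 of the 6 windows and in 0.965% of all 35116 promoter windows of the same length. This motif was chosen after the windows had been read, since the longer pattern misses the stretches of CXCL8 and ICAM1. The longer pattern, which overlaps it in CXCL1, CXCL2 and CXCL3, was found in 4 of 6 windows and in 1.91% of all windows. A looser one, GGG and CC with 5 bases of any kind between them, was found in 6 of 6 and in 58.7% of all. All were searched on both strands. The match starts 78 bases before the RefSeq start in CXCL1 and CXCL3, 77 in CXCL2, 91 in CXCL8 and 186 in ICAM1. The windows of CXCL1, CXCL2 and CXCL3 are copies of one another, with 82.7% to 86.4% identical bases over the 226 to 242 upstream bases that align, so their matches are not separate examples. In GENCODE release 29 the stretches of CXCL2, CXCL3, CCL20 and ICAM1 lie inside the span of a longer annotated transcript of the same gene, and that of ICAM1 also under the antisense gene AC011511.2. A match is a run of letters and was not tested for binding.

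CXCL8 also holds TGANTCA, the AP-1 type motif, 137 bases before its start, the only one of the 6 windows with it against 7.71% of all windows. Both matches are in capitals in the 87 bases upstream of every annotated CXCL8 transcript.
CXCL8, chr4:73740419-73740505, plus strand: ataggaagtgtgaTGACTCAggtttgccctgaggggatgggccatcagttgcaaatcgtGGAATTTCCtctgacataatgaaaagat
The 150 bases before CXCL1, which lie outside annotated transcripts, are shown for comparison.
CXCL1, chr4:73869243-73869392, plus strand: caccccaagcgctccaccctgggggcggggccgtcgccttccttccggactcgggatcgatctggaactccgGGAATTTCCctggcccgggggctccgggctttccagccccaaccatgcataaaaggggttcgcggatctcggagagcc

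Levels are in RPKM, reads per kilobase of transcript scaled to the depth of the library, summed over the transcripts of a gene. Of the 9 genes, 6 reached 1 RPKM in either library and were compared, and 3 did not (CXCL3, CCL2 and CX3CL1). Among the control library's levels ICAM1 was highest at 8.51 RPKM, followed by CXCL16 at 5.85 RPKM. CXCL8, CCL20, CXCL1 and CXCL2 lay together between 0.9997 and 1.23 RPKM, and with 1 library their order has no replicate spread to stand on. CXCL3 stood at 0.201 RPKM, CCL2 at 0.151 and CX3CL1 at 0.0506. In the ASC library the order of the 6 compared genes was ICAM1, CXCL16, CXCL1, CXCL8, CXCL2 and CCL20, from 18.6 down to 1.46 RPKM. SAS cells thus held low levels of most of these transcripts in both libraries. In the control library ICAM1 lay above 43.7% of compared genes and CXCL1 above 2.95%. With ASC these shares were 65.7% for ICAM1 and 22.9% for CXCL1.

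**Figure D1:**
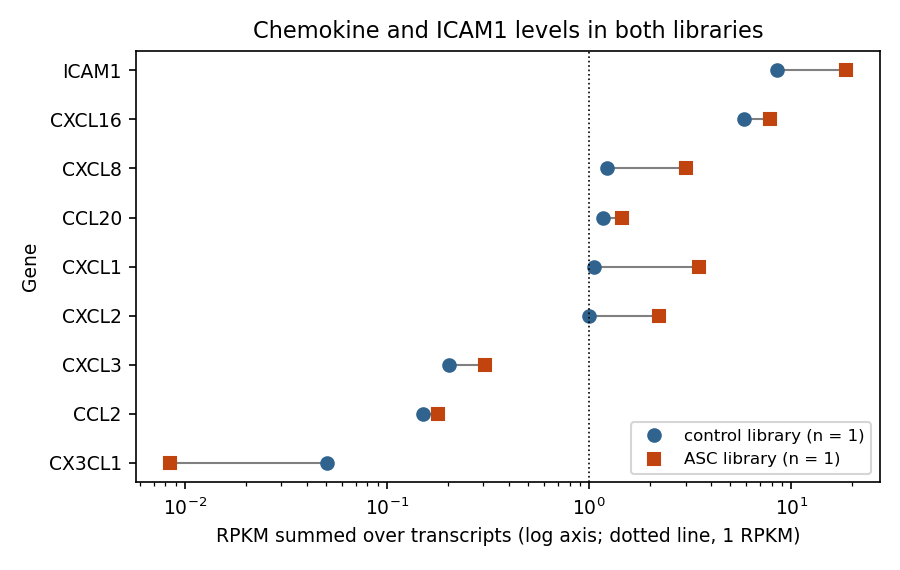
RPKM of each gene, summed over transcripts, on a log axis, with circles for the control library and squares for the ASC library (1 library each). The square lies to the right of the circle for 8 genes and to the left for CX3CL1, which rests on 1 and 6 reads.

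All 6 compared genes had log2 ratios of (RPKM + 1) above 0, ASC over control, where 52% of the 12471 compared genes did. On this scale, which understates differences of low genes, CXCL1 and ICAM1, 2 of the 6, were past 2-fold on the higher side, and the other 4 lay within 2-fold. Among all compared genes 0.617% were at least 2-fold higher and 0.265% at least 2-fold lower. The median log2 ratio of the 6 was 0.77, beside 0.01 for all compared genes. In plain RPKM 4 of the 6 were at least 2-fold higher, namely CXCL1, CXCL8, CXCL2 and ICAM1, where 1.4% of compared genes were. CXCL2, at 0.9997 RPKM in the control library, reached 1 RPKM only with ASC, so the filter fixed that it was higher. These genes were picked with earlier results of these libraries known, so the counts describe them and support nothing further.

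The neutrophil chemokines CXCL1 and CXCL8 had the largest ratios in plain RPKM. CXCL1 (ENSG00000163739.4), a ligand of CXCR2, lies on the plus strand of chromosome 4 from 73869393 to 73871242 in hg38. It held 132 reads and 3.50 RPKM in the ASC library against 39 reads and 1.05 RPKM in the control library. The RPKM was 3.33-fold higher with ASC, and the ratio of reads scaled to depth was 3.37 (exact 95% interval 2.34 to 4.95). Its log2 ratio of 1.13 ranked 57 among the 12471 compared genes. CXCL1 alone of the 6 had an interval of reads wholly above 2, where 0.786% of compared genes did.

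CXCL8 (ENSG00000169429.10), the gene of interleukin-8, lies on the plus strand of chromosome 4 from 73740506 to 73743716. It held 155 reads and 3.03 RPKM with ASC against 57 reads and 1.23 RPKM without. Its RPKM was 2.47-fold higher and its ratio of reads 2.71 (95% interval 1.99 to 3.74). The log2 ratio of 0.86 fell short of 2-fold on the (RPKM + 1) scale and came to 1.07 when reads were scaled to depth alone, as CPM with a pseudocount of 1 CPM. CXCL8 ranked 116 by log2 ratio.

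CXCL2 and CXCL3, close relatives of CXCL1, had smaller ratios, with read intervals that overlap that of CXCL1. CXCL2 (ENSG00000081041.8, minus strand of chromosome 4, 74097035 to 74099293) held 89 against 39 reads, or 2.21 against 0.9997 RPKM. Its ratio of reads was 2.27 (95% interval 1.54 to 3.40), and its log2 ratio of 0.68 ranked 207. CXCL3 (ENSG00000163734.4, minus strand, 74036589 to 74038807) held 15 against 7 reads, or 0.306 against 0.201 RPKM. The ratio of CXCL3 reads was 2.13 with an interval from 0.819 to 6.19, so a difference was not detectable at this depth. Its RPKM ratio was smaller, 1.52, with its reads on transcripts of other lengths in the 2 libraries.

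Together CXCL1, CXCL2, CXCL3 and CXCL8 held 391 reads with ASC and 142 without, a depth-scaled ratio of 2.74 (95% interval 2.26 to 3.35). CXCL1, CXCL2 and CXCL3 are similar enough for reads to be shared. Of the distinct 50-base stretches in their listed transcripts, 4.81% in CXCL1, 12.5% in CXCL2 and 6.01% in CXCL3 also occur in another of the 3. No such stretch of CXCL8, CCL2 or CCL20 occurs in another listed gene. Reads summed per gene lay within 0.02 of a whole number in both libraries for all 9 genes, as for 66.4% of compared genes. How the authors assigned shared reads is not given in the sources used here, so the split among these 3 genes is uncertain.

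**Figure D2:**
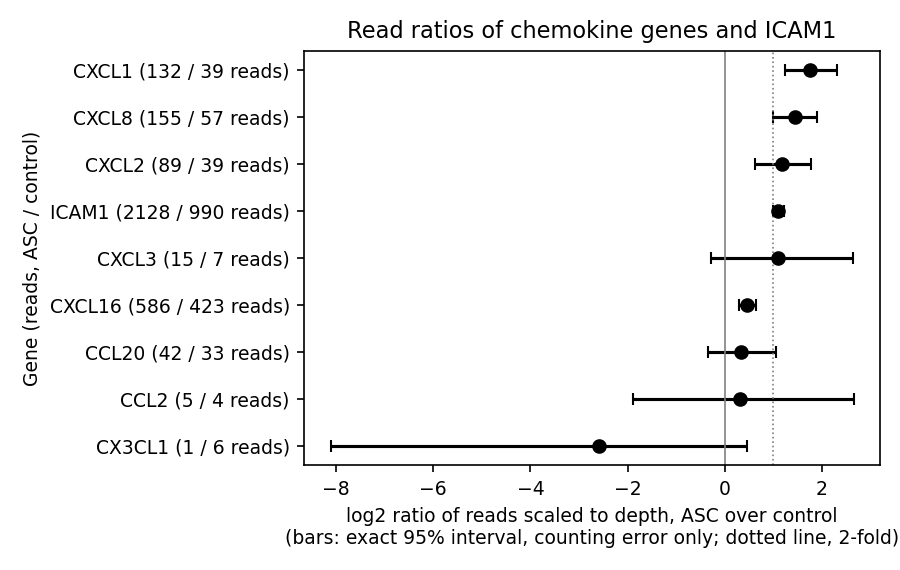
Depth-scaled read ratio (log2, ASC over control) for each gene, with exact 95% intervals from counting error alone and the reads of both libraries beside the name. The intervals of CXCL1, CXCL8, CXCL2, ICAM1 and CXCL16 lie above 0, and those of CXCL3, CCL20, CCL2 and CX3CL1 span it.

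ICAM1 (ENSG00000090339.8) had the most reads of the 9 genes. It lies on the plus strand of chromosome 19 from 10270835 to 10286615. ICAM1 held 2128 reads and 18.6 RPKM in the ASC library against 990.005 estimated reads and 8.51 RPKM in the control library. Its RPKM was 2.19-fold higher, its ratio of reads 2.14 (95% interval 1.98 to 2.31) and its log2 ratio 1.05, which ranked 71 of 12471. The antisense genes AC011511.2 and AC011511.5 overlap it in the annotation, and the library kit does not mark strand. The table lists them as CTD-2369P2.5, with 1 against 0 reads, and CTD-2369P2.8, with 5 against 7 reads, far below the reads of ICAM1.

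CXCL16 and CX3CL1 are made as membrane proteins with a chemokine domain on a mucin stalk and can be shed. CXCL16 (ENSG00000161921.14), the ligand of CXCR6, is a minus-strand gene of chromosome 17, at 4733526 to 4739922. It held 586 against 423 reads, or 7.85 against 5.85 RPKM, with a ratio of reads of 1.38 (95% interval 1.22 to 1.57) and a log2 ratio of 0.37. The interval of CXCL16 did not overlap that of ICAM1. The end of CXCL16 overlaps MED11, a Mediator subunit gene on the other strand, which stood at 12.7 against 13.1 RPKM. CX3CL1 (ENSG00000006210.6, plus strand of chromosome 16, 57372458 to 57385048), also called fractalkine, held 1 read with ASC and 6 without. Its ratio of reads was 0.166 with an interval from 0.0036 to 1.37, and no difference was detectable at this depth.

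The read intervals of CCL20 and CCL2, of the CC family, spanned a ratio of 1. CCL20 (ENSG00000115009.12), which attracts CCR6-bearing lymphocytes and dendritic cells, is annotated on the plus strand of chromosome 2 from 227805739 to 227817564. It held 42 against 33 reads, or 1.46 against 1.17 RPKM, with a ratio of reads of 1.27 (95% interval 0.784 to 2.06). This interval did not overlap that of CXCL1. CCL2 (ENSG00000108691.9, plus strand of chromosome 17, 34255218 to 34257203), the monocyte attractant MCP-1, held 5 against 4 reads with an interval from 0.268 to 6.27. In all, 5 of the 6 compared genes had a read interval wholly above 1, CCL20 being the exception, beside 28.5% of all compared genes and 27% with an interval wholly below 1. An interval that excludes 1 was thus common among compared genes.

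**Figure D3:**
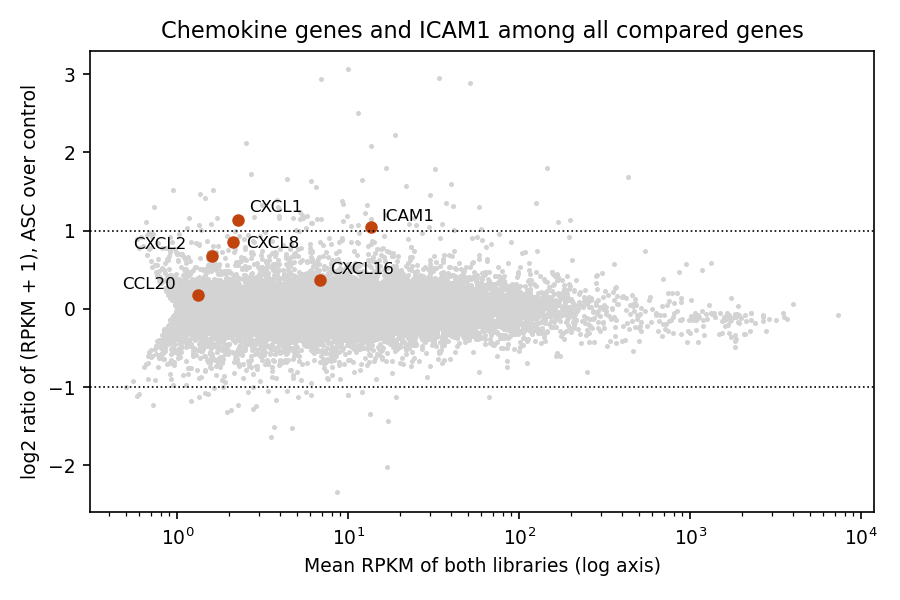
Log2 ratio of (RPKM + 1), ASC over control, against the mean RPKM of both libraries for all 12471 compared genes (grey), with the 6 compared chemokine and ICAM1 genes marked and dotted lines at 2-fold. CXCL1 and ICAM1 lie above the upper line, CXCL8 and CXCL2 below it at the edge of the grey cloud, and CXCL16 and CCL20 inside it. PYCARD, at 6.83, is above the range drawn.

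The transcript rows show which forms carried these reads. Of the 33 transcripts, 16 held at least 5 estimated reads in either library. The full-length CXCL1 transcript ENST00000395761.3, with 4 exons, held 95.9% of CXCL1 reads with ASC and 93.6% without. It held 126.6 against 36.5 estimated reads, while the processed transcript ENST00000509101.1 held 5.44 against 2.51. The CXCL2 transcript ENST00000508487.2 held 82.8 against 34.9 estimated reads, 93.0% and 89.5% of the gene's reads.

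CXCL8 had a second coding form with few reads. Its main transcript ENST00000307407.7 held 136.6 against 45.1 estimated reads, a ratio of 3.03 (95% interval 2.15 to 4.35). The shorter coding transcript ENST00000401931.1, with 3 exons, held 12.1 against 10.0235, a ratio of 1.19 (0.473 to 3.09). The main form thus made up 88.1% of CXCL8 reads with ASC and 79.2% without. The intervals of these forms overlap, which does not decide whether their ratios differ, and a shift between them was not tested. The retained-intron form ENST00000483500.1 held 6.36 against 1.84 reads.

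ICAM1 reads came nearly all from ENST00000264832.7, with 7 exons, which held 99.1% of them with ASC and 99.98% without. That transcript held 2108.4 against 989.8 estimated reads, a ratio of 2.12 (95% interval 1.96 to 2.29). The shorter coding form ENST00000423829.2, with 5 exons, held 18.6 estimated reads with ASC and 0.16 without, with an exact 95% interval of the ratio of rounded reads that starts at 4.65. Both forms share exons, so these reads are estimates of how shared reads divide.

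CXCL16 and CCL20 each had a main form and a minor one. The CXCL16 transcript ENST00000293778.10, with 6 exons, held 499.5 against 358.9 estimated reads, and ENST00000574412.5 held 67.4 against 39.7. ENST00000576153.5 of CXCL16 held 17.4 against 16.9 and ENST00000573123.1 held 1.76 against 7.46, with an interval of the ratio from 0.0288 to 1.49. The CCL20 transcript ENST00000358813.4 held 33.8 against 29.3, and ENST00000409189.7, another coding form with 4 exons, held 8.20 against 0.72. In CXCL3 the processed transcript ENST00000511669.1 held 9.53 against 2.40 and the coding ENST00000296026.4 held 5.47 against 2.37. The other 17 transcripts held fewer than 5 estimated reads in both libraries.

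**Figure D4:**
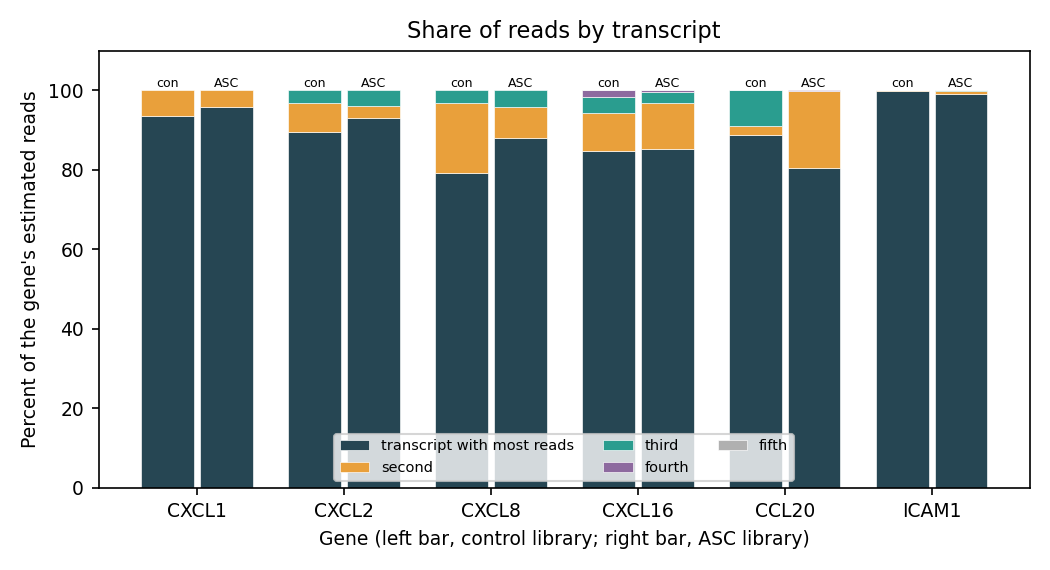
Percent of the estimated reads of CXCL1, CXCL2, CXCL8, CXCL16, CCL20 and ICAM1 held by each transcript of the gene, with the control library in the left bar and the ASC library in the right bar of each pair. The main transcript holds between 79.2% and 99.98% of the reads in every bar, and its CXCL8 share is larger with ASC.

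The neutrophil chemokine genes lie in 1 cluster on chromosome 4, and genes beyond its end differed as well. Within 500 kb of CXCL2, 5 other genes were compared. They were CXCL8, CXCL1, MTHFD2L, a gene of mitochondrial folate metabolism, and the EGFR ligand genes EREG and AREG. MTHFD2L had a log2 ratio of -0.06, while EREG and AREG had 0.83 and 1.14, with AREG at 274.2 against 123.6 RPKM. Some annotations hold a near-identical copy of AREG, so its level is uncertain. These 3 genes were named after their values were seen. Within this window the chemokine genes were thus not the only ones that were higher, and MTHFD2L, between CXCL2 and EREG, was not.

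The genes around ICAM1 were mostly slightly lower with ASC. Of 28 other compared genes within 500 kb, none was past 2-fold in either direction, and 12361 of all 12471 compared genes were within 2-fold. Of the 28, 25 had log2 ratios below 0 and the median was -0.18, where 48% of all compared genes lay below 0. The family members ICAM3, ICAM4 and ICAM5 lie in this stretch. ICAM5 stood at 10.8 against 13.2 RPKM, ICAM3 at 1.02 against 1.70, and ICAM4 held 5 against 7 reads. Their read ratios had intervals below 1 for ICAM5 only. ICAM4 and ICAM5 were named after their values were seen. Around CXCL16, 23 other compared genes had a median of 0.06 and around CX3CL1 17 had a median of 0.08, with none past 2-fold in either stretch. Around CCL20, itself at 0.18, 4 other compared genes had a median of 0.50. Of these SLC19A3, a thiamine transporter gene, held 202 against 49 reads, a log2 ratio of 1.07, and DAW1 held 69 against 15 reads, a log2 ratio of 0.77. In the control library SLC19A3 stood at 0.509 and DAW1 at 0.246 RPKM. Both reached 1 RPKM only with ASC, so the filter fixed that they were higher, and the median of 0.50 rests in part on them. MFF and AGFG1, also compared there, had log2 ratios of -0.13 and 0.22. SLC19A3, DAW1, MFF and AGFG1 were named after their values were seen.

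**Figure D5:**
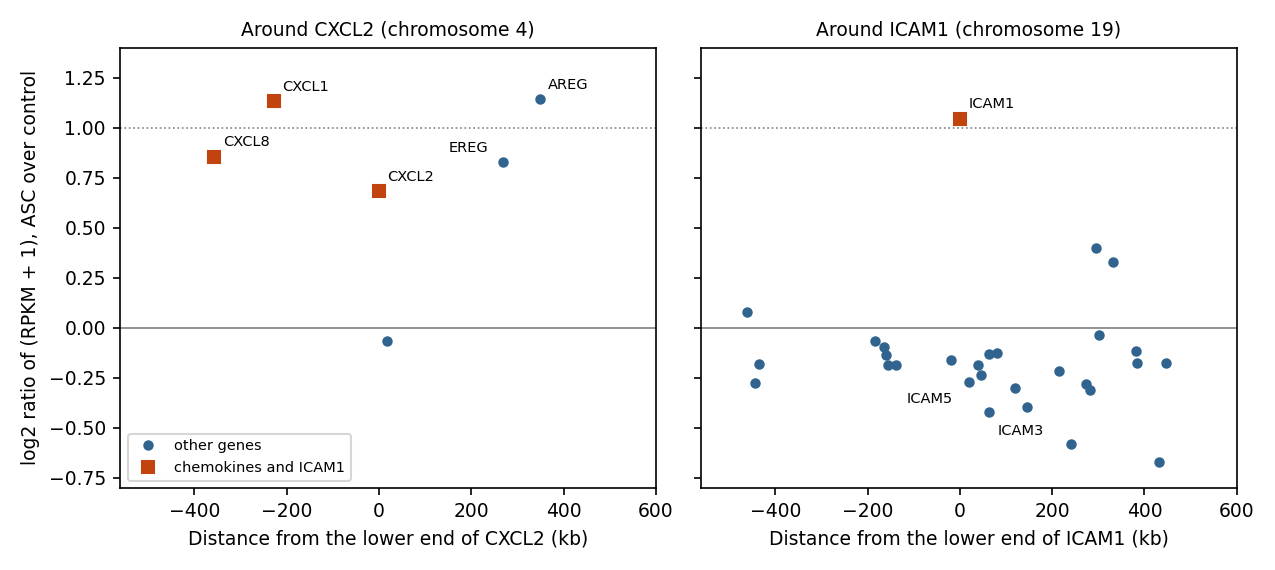
Log2 ratio of (RPKM + 1), ASC over control, of compared genes within 500 kb of CXCL2 (left) and ICAM1 (right), against distance in kb. Squares are chemokine genes and ICAM1, circles other genes. On the left EREG and AREG lie as high as the chemokines, and on the right ICAM1 lies alone above genes whose median is -0.18.

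Other chemokine ligands were scarce. Of 40 listed, 13 were found and 1 was compared, CCL28, a mucosal chemokine, at 1.14 against 0.558 RPKM with 93 against 46 reads. Its log2 ratio was 0.46, with an interval of the log2 ratio of reads from 0.48 to 1.55. CCL28 reached 1 RPKM only with ASC, so the filter fixed that it was higher. The 12 others lay under 1 RPKM in both libraries. XCL1 held 24 against 19 reads, CXCL14 1 against 9, and CXCL10, the interferon-induced ligand of CXCR3, 0 against 1. These 3 were named after their values were seen.

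The receptors of these ligands were near the floor or not found in SAS cells. CXCR2, the receptor of CXCL1, CXCL2, CXCL3 and CXCL8, held 4 reads with ASC and 8 without. CXCR6, the receptor of CXCL16, held 3 and 0, CX3CR1 2 and 0, and CCR2, the receptor of CCL2, 0 and 1. Of 23 chemokine receptor genes listed, 13 were found and 2 were compared. CXCR1, which also binds CXCL8, and CCR6, the receptor of CCL20, were among those not found. The scavenging receptor ACKR3 was at least 2-fold lower with ASC, at 1.20 against 4.35 RPKM and 68 against 260 reads (log2 ratio -1.28). CCRL2, an atypical receptor that presents chemerin, went the other way, at 1.37 against 0.436 RPKM and 83 against 22 reads (log2 ratio 0.73). CCRL2 reached 1 RPKM only with ASC, so the filter fixed its direction. Of ICAM1's integrin partners, ITGAL held 1 against 0 reads, ITGAM 1 against 1, and their shared beta chain ITGB2 16.4 against 12.8 RPKM.

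Other adhesion molecules for leukocytes were within 2-fold, as were 12361 of the 12471 compared genes. Of 15 listed, 12 were found and 9 compared, 6 above 0 and 3 below, with a median log2 ratio of 0.16. Among all compared genes 52% lay above 0 and the median was 0.01. Read intervals lay wholly above 1 for 5 of the 9 and wholly below 1 for 2, beside 28.5% and 27% of all compared genes. PVR and NECTIN2, ligands of natural killer cell receptors, had log2 ratios of 0.59 and 0.54, and ICAM3 and ALCAM, the CD6 ligand, -0.42 and -0.41. The 5 genes for the shedding of membrane chemokines were all within 2-fold, with a median of 0.10. The proteases ADAM10 and ADAM17 stood at 50.5 against 46.9 and 23.3 against 21.2 RPKM. The ADAM17 cofactor gene RHBDF1 stood at 6.68 against 5.81 and the inhibitor gene TIMP3 at 35.7 against 37.8.

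Of 25 other NF-kB targets and cytokines, 24 were found and 18 compared. Of these, 16 lay above 0 with a median of 0.24, 1 was past 2-fold on the higher side and none on the lower. Among all compared genes 52% lay above 0 and the median was 0.01. At least 2-fold higher were 0.617% of them, and at least 2-fold lower 0.265%. PTGS2 and CSF2, among the 16, reached 1 RPKM only with ASC, so the filter fixed their sign. IL6, interleukin-6, had a log2 ratio of 1.30, followed by the transcription factor IRF1 at 0.91, the cytokine LIF at 0.87 and IL32 at 0.79. NFKBIA, the inhibitor that NF-kB induces as feedback, stood at 25.4 against 28.1 RPKM (log2 ratio -0.14) and IL1A at 147.2 against 146.7 RPKM. Of the same list, NFKBIB, NFKBIE, NFKBIZ, TNFAIP3 and CYLD lay above 0, with log2 ratios of 0.16, 0.26, 0.50, 0.22 and 0.33. The read interval of NFKBIB spanned a ratio of 1, and those of NFKBIE, NFKBIZ, TNFAIP3 and CYLD lay above 1, as for 28.5% of all compared genes. NFKBIA, IL1A, NFKBIB, NFKBIE, NFKBIZ, TNFAIP3 and CYLD were named after their values were seen. All 5 NF-kB subunit genes were within 2-fold, as were 12361 of the 12471 compared genes. NFKB2 had a log2 ratio of 0.67, RELB 0.40, NFKB1 0.28 and REL -0.42. Chemokine mRNAs are short-lived and carry elements bound by decay and stability factors. The 8 genes of such factors were within 2-fold with a median of 0.09. HNRNPD, which encodes AUF1, stood at 0.31, the RNase gene ZC3H12A at 0.26, ZFP36L1 at 0.18 and ZFP36L2 at -0.18.

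PYCARD stood at 266.5 against 1.36 RPKM, in the direction of the labels. Epithelial markers were present in both libraries, all 8 compared and within 2-fold, with summed levels of 3417 RPKM with ASC and 2710 without. Most of this sum was KRT18, at 1363 against 967 RPKM, and KRT8, at 1136 against 763. Of the 8, 6 had log2 ratios above 0 and 2 below, KRT5 at 311 against 421 RPKM and TP63 at 46.0 against 54.5. Among all compared genes 52% lay above 0, and 12361 of 12471 were within 2-fold. Of 10 leukocyte markers 5 were found, with a summed level of 24.9 against 26.5 RPKM, nearly all from CD68, at 24.1 against 25.9. The pan-leukocyte gene PTPRC held 1 read against 0. Of 8 fibroblast markers 6 were found and none reached 1 RPKM, with a summed level of 1.21 against 0.309 RPKM and 45 against 2 reads of FAP. Of 6 endothelial markers 5 were found, with a summed level of 2.86 against 2.14 RPKM. Most of this sum was CDH5, the VE-cadherin gene, at 2.23 against 1.23 RPKM and 272 against 155 reads, with an interval of its log2 ratio of reads from 0.52 to 1.10. VWF, under 1 RPKM in both libraries, went the other way, at 0.584 against 0.840 RPKM and 184 against 213 reads. The interval of its log2 ratio of reads ran from -0.51 to 0.07. PECAM1 held 5 against 7 reads, KDR 1 against 1 and TEK 1 against 0. TP63, VWF, KDR and TEK were named after their values were seen. The part of fibroblast and endothelial markers in the chemokine differences was not tested.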

How the data were processed

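Poly(A) RNA of 2 SAS lines, 1 library per group, was sequenced from TruSeq libraries, per the labels' protocols. Per the file headers, the authors' table gives estimated counts per transcript (fractional, not scaled to depth) and RPKM. Per the submitters' processing notes the genome was hg38. Aligner, quantifier and annotation release: not given in the sources used here. The libraries hold 31426491 (ASC) and 31289581 (control) listed reads. In 285 lines a gene name had become a date, and 284 were restored through GENCODE release 29.

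RPKM and estimated counts were summed per gene. Genes that reached 1 RPKM in 1 or both libraries were compared as log2 of (RPKM + 1), ASC over control, and counted at 2-fold. Groups came from the sample titles. Ratios of rounded reads scaled to listed reads have exact (Clopper-Pearson) 95% intervals. Reads are not independent molecules, so intervals cover counting error only. The genes and lists were chosen with earlier results of these data known. Named are the 9 genes, their transcripts of at least 5 estimated reads, PYCARD, receptors of the 9, and up to 4 compared genes per other list with the largest absolute log2 ratio, unless stated. Python 3.11.15, pandas 2.3.3, scipy 1.17.1 and edgeR 4.0.16 (TMM scaling of rounded estimated counts) were used. The procedure was tested on simulated independent counts, without spread between replicate libraries or division of reads among transcripts. Differences were set only in genes with more reads than most of the 9 have, so the simulation does not cover such low genes. Alternatives were pseudocounts, filters, centring, TMM, CPM, the highest transcript, protein-coding transcripts and thresholds. Planned protein features were not analysed here.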

Additional observations from a re-analysis of the deposited data

How the results depend on the processing

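Every log2 ratio of the 9 genes kept its sign under pseudocounts of 0.1 and 3, centring, TMM scaling, CPM, the highest transcript and protein-coding transcripts alone. Over these settings CXCL1 ranged from 0.68 to 1.64, CXCL8 from 0.51 to 1.24, CXCL2 from 0.38 to 1.07, ICAM1 from 0.91 to 1.12, CXCL16 from 0.29 to 0.44 and CCL20 from 0.10 to 0.29. A pseudocount cannot change a sign. Centring and TMM scaling shifted the median of all genes by only -0.01 and -0.007. The kept signs are thus a weak check, and the CCL2 ratio fell to 0.0006. The number of the 9 genes counted as 2-fold higher, 2 as reported, was 4 with a pseudocount of 0.1, 0 with a pseudocount of 3, 1 with a filter at 5 RPKM (which leaves 2 of them), 3 with CPM, 4 at 1.5-fold and 0 at 4-fold, and none was counted as lower under any setting. Their median was 1.10 with a pseudocount of 0.1, 0.45 with a pseudocount of 3 and 0.37 with no filter, which adds the 3 low genes. Among all genes, 77 higher and 33 lower became 160 and 127 with a pseudocount of 0.1, 34 and 9 with a pseudocount of 3, 121 and 65 with CPM, 297 and 226 at 1.5-fold and 9 and 2 at 4-fold, and 17 were lower with a filter at 5 RPKM. These pseudocounts and thresholds set the counts by construction. No paired analysis was possible because each group has 1 library. Depth limits CXCL3, CCL2 and CX3CL1 most.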

Other observations

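Other immune genes in the lists examined were named after their values were seen. CSF3, which encodes the neutrophil growth factor G-CSF, held 21 reads in the ASC library against 7 in the control library, with a 95% interval of its log2 ratio of reads from 0.29 to 3.06, and stood under 1 RPKM in both. CSF2, which encodes GM-CSF, held 32 against 27 reads with an interval from -0.55 to 1.03. CXCL14, a chemokine of resting epithelium, held 1 against 9 reads, with an interval from -8.63 to -0.32. PTGS2, which encodes the prostaglandin enzyme COX-2, stood at 1.28 against 0.766 RPKM, and LTB, lymphotoxin beta, at 3.01 against 1.62 RPKM. PTGS2 held 161 against 99 reads with an interval from 0.33 to 1.07, and LTB 96 against 52 with an interval from 0.38 to 1.39.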
